A study of Mus musculus with 2 samples.

Results

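The Notch pathway genes described here are 10 rows of a count table of polyadenylated RNA, found by their gene symbols among 22556 genes. They are the receptor genes Notch1, Notch2, Notch3 and Notch4, the ligand genes Dll1, Dll3, Jag1 and Jag2, the gene of the DNA-binding factor Rbpj and the target gene Hes1. The 2 samples are replicates of 1 group, mouse embryonic stem cells (mESCs) of the line iXist-ChrX-Dom at 0 h, without any treatment, grown on feeder fibroblasts that were removed before harvest. This line is female (XX), from a cross labelled Dom/129S x Cast. On its Dom/129S X chromosome the promoter of Xist, the RNA that silences an X chromosome, has been exchanged for a TetOn promoter, and both libraries carry that change. The cell type field of the labels reads mESC to NPC (neural precursor cell), but the titles name ES cells at 0 h, and both are 1 engineered line. The study used these RNA libraries to sort genes into groups by their level before Xist is induced. No treatments are compared, and the values are the level of each gene and how well it repeated. All 10 genes lie on autosomes.

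In Notch signalling, a ligand of the Delta or Jagged family on 1 cell binds a Notch receptor on its neighbour, and the receptor is then cut by ADAM proteases and by gamma-secretase. The freed intracellular part of the receptor enters the nucleus, joins RBPJ on DNA and recruits coactivators of the Mastermind family. Without it, RBPJ is bound by corepressors, among them SPEN, the factor whose SPOC domain is mutated in the study. In the embryo the pathway is known for choices of cell fate in the nervous system, the somites and the blood vessels, and HES1 is a transcriptional repressor whose level is known to vary between mESCs.

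Promoter windows of RefSeq (GRCm38.p6), from 250 bases before to 50 bases after a transcription start, were found for 9 of the 10 genes, that is for all but Hes1. They are shown because RBPJ binds a known core motif, TGGGAA, which was searched on both strands. That motif was in the windows of 1 of the 9 genes, Rbpj itself, and in those of 28.3% of 27025 genes with a window. The longer form GTGGGAA, which contains the core, was in the windows of none of the 9 genes and of 7.25% of all genes. Of the other Hes, Hey and Nrarp genes, 5 had a window, and 3 of them held the longer form, namely Hes5, Hes7 and Hey2. Each line below gives 30 bases of the gene's own strand, with the core motif or its reverse complement in capitals.
Rbpj, chr5:53590185-53590214, plus strand: aatgaaaaaggcTGGGAAcccgcggcgagc
Rbpj, chr5:53590269-53590298, plus strand: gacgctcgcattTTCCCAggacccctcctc
Hes5, chr4:154960685-154960714, plus strand: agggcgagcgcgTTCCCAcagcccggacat
Hes5, chr4:154960829-154960858, plus strand: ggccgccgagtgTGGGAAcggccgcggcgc
Hes7, chr11:69120261-69120290, plus strand: tcctcccctcacTTCCCAcatttggggcta
Hey2, chr10:30842973-30843002, minus strand: tgcgcggtggcaTTCCCAcgcctctgccaa
Hey2, chr10:30842769-30842798, minus strand: tgggctgcagcgTGGGAAagaacctccagg
A match is a description of these letters and no evidence of binding. The windows of the 9 genes were rich in CpG, with a median of 24 CpG dinucleotides against 8 over all genes, taking the richest window of each gene. Notch4 had the fewest at 5, and Jag2 the most at 63.

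The libraries held 23716499 counts (replicate 1) and 20275749 counts (replicate 2). Levels between genes were compared as TPM, a share of transcripts that takes out the length of a gene and sums to the same total in each library, with exonic length, and 95% Poisson intervals cover counting error only. Of the cell type markers, all 10 ES cell genes reached 1 TPM, with a summed level of 3211 TPM in replicate 1 and 2365 TPM in replicate 2. At least 1 TPM was also reached by 2 of 8 neural precursor genes, 3 of 7 primitive endoderm genes, 2 of 6 endothelial genes and 1 of 12 genes of fibroblasts, the feeder cell type. The fibroblast genes summed to 3.55 and 1.18 TPM, with Lum at 0 counts in both libraries. The endothelial genes summed to 58.1 and 34.3 TPM, nearly all from Pecam1 and Tek, while Cdh5 was at 0. The neural genes summed to 169 and 186 TPM, nearly all from Vim, an intermediate filament gene of many cell types, at 164 and 182 TPM. Olig2 and Sox1 were at 0, although Sox1 overlaps another gene of the table on its strand and its 0 cannot be read. Whether other cells contributed to the levels below was not tested, and in such bulk samples a few cells with much of an RNA cannot be told apart from many cells with little.

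The 10 genes fell into a high pair and a low group. Rbpj and Hes1 stood above 90 TPM in both libraries, and the 8 receptor and ligand genes between 0.351 and 10.6 TPM. A mean of at least 1 TPM was reached by 9 of the 10 genes, against 55.3% of 22136 genes with an exonic length. The median of the 10 genes was 2.87 TPM, and that of all genes was 1.85 TPM. The order of the 10 genes was the same in both libraries.

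**Figure D1:**
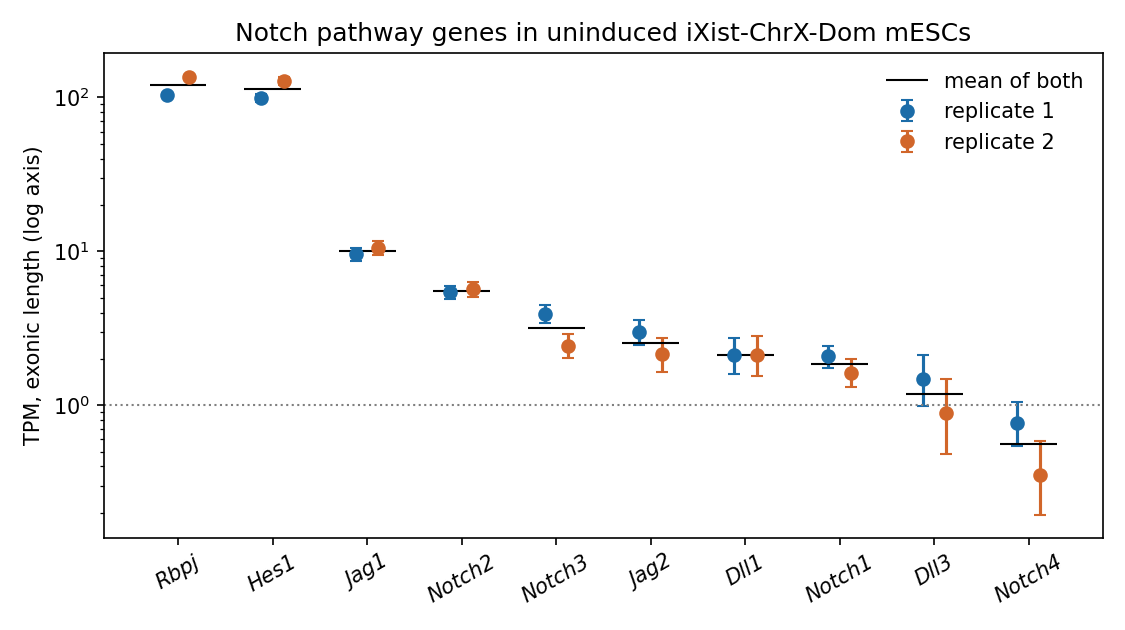
Level of the 10 Notch pathway genes, in TPM with exonic length on a log axis, in replicate 1 (blue) and replicate 2 (orange), with 95% Poisson intervals for counting error and the mean as a black line. The dotted line marks 1 TPM. The means of Rbpj and Hes1 stand 11.3-fold or more above those of the other genes, and Notch4 is the only gene with a mean under 1 TPM.

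Rbpj (chromosome 5, 53555778 to 53657445, plus strand, mm10), the factor that binds DNA for all 4 receptors, had 5442 counts in replicate 1 and 5721 in replicate 2. Its level was 104 TPM in replicate 1 and 136 TPM in replicate 2, or 120 ± 22.6 TPM (SD, n = 2). This was higher than 91.3% of all genes, and replicate 2 was the higher library. The value is uncertain, because 23.3% of the 50-base words of its longest transcript also occur in annotated pseudogenes, Rbpj-ps1 and Rbpj-ps3 among them.

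Hes1 (chromosome 16, 30065356 to 30067796, plus strand) had 1091 and 1140 counts. The level was 98.9 TPM in replicate 1 and 128 TPM in replicate 2, a mean of 114 ± 20.9 TPM (SD, n = 2), higher than 90.8% of all genes. The ranges of Rbpj and Hes1 overlapped, so their order was not resolved. Between Hes1 and the next gene, Jag1, lay a gap of 11.3-fold in the means, 10.3-fold in replicate 1 and 12.2-fold in replicate 2.

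Among the receptors, Notch2 was highest with exonic length. It lies on chromosome 3 (98013537 to 98150367, plus strand) and had 428 and 359 counts, which is 5.42 TPM in replicate 1 and 5.66 TPM in replicate 2. Notch3 (chromosome 17, 32120892 to 32166852, minus strand) had 236 and 118 counts, or 3.92 and 2.44 TPM, so that replicate 1 was clearly the higher library. Notch1 (chromosome 2, 26457901 to 26503822, minus strand) followed with 148 and 93 counts, or 2.07 and 1.62 TPM. Notch4, known mainly from blood vessels, was lowest, and its library values did not overlap those of the other receptors. It lies on chromosome 17 (34564294 to 34588543, plus strand) and had 38 and 14 counts, or 0.767 TPM (interval 0.543 to 1.05) and 0.351 TPM (0.192 to 0.590). The mean of Notch4 was still higher than 40.1% of all genes, many of which had no count at all.

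The 4 receptors together reached 12.2 TPM in replicate 1 and 10.1 TPM in replicate 2. Notch2 made up 44.5% and 56.2% of that sum, and Notch3 32.2% and 24.2%. Notch1 contributed 17.0% and 16.1%, a share that repeated more closely than those of the others, and Notch4 6.30% and 3.49%. With span length Notch2 made up 24.0% and 33.7% and Notch3 39.3% and 32.9%, so that Notch3 led in replicate 1 and the pair was nearly equal in replicate 2. Rbpj exceeded the highest receptor gene by 19.2-fold in replicate 1 and 24.1-fold in replicate 2.

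Among the ligands, Jag1 was highest. It lies on chromosome 2 (137081450 to 137116520, minus strand) and had 405 and 358 counts, or 9.60 and 10.6 TPM, a mean of 10.1 ± 0.674 TPM (SD, n = 2). Jag2 (chromosome 12, 112908589 to 112929495, minus strand) had 114 and 66 counts, or 2.97 and 2.14 TPM. Dll1 (chromosome 17, 15367353 to 15375823, minus strand) had 57 and 46 counts, or 2.12 TPM in each library. Dll3 differs in role from the other ligands, since it is known to act inside the cell and to lower signalling. It lies on chromosome 7 (28293554 to 28301785, minus strand) and had only 29 and 14 counts, or 1.47 TPM (0.987 to 2.12) and 0.885 TPM (0.484 to 1.48).

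The 4 ligands summed to 16.2 TPM in replicate 1 and 15.7 TPM in replicate 2. Jag1 supplied 59.4% and 67.2% of that sum and exceeded Dll1 by 4.53-fold and 4.97-fold, a ratio of means of 4.75 that was 1.80 with span length. The Jagged genes thus stood above the Delta genes in the summed level of this family in both libraries, mostly through Jag1. Jag2 and Dll1 were at 2.97 and 2.12 TPM in replicate 1 and at 2.14 and 2.12 TPM in replicate 2. With span length the mean of Jag2, at 3.23 TPM, was below that of Dll1, at 4.67 TPM.

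In order of the mean the genes were Rbpj, Hes1, Jag1, Notch2, Notch3, Jag2, Dll1, Notch1, Dll3 and Notch4. The steps from Hes1 to Jag1, from Jag1 to Notch2 and from Notch2 to Notch3 were larger than both the spread between libraries and the counting intervals. The other 6 steps were not resolved. For Rbpj and Hes1, and for Notch3 and Jag2, the library values overlapped, and for the 4 lowest steps the counting intervals overlapped in each library although the library values did not.

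The order depended on the length used. The deposited length column is the whole transcribed span of a gene, introns included, and with it Hes1 stood first at 357 ± 79.2 TPM (SD, n = 2) and Rbpj second at 42.9 ± 9.70 TPM. Hes1 is compact, with a span of 2441 bases against 1468 exonic bases, whereas Rbpj spans 101668 bases with 6947 exonic bases. Notch2, with the longest span of the 10 genes at 136831 bases, fell from rank 4 to rank 7 with span length, at 2.22 ± 0.151 TPM, and was then below Notch3 at 2.87 ± 0.841 TPM. Dll1 moved from rank 7 to rank 4, at 4.67 ± 0.191 TPM. Jag1 at rank 3, Notch1 at rank 8, Dll3 at rank 9 and Notch4 at rank 10 kept their places.

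**Figure D2:**
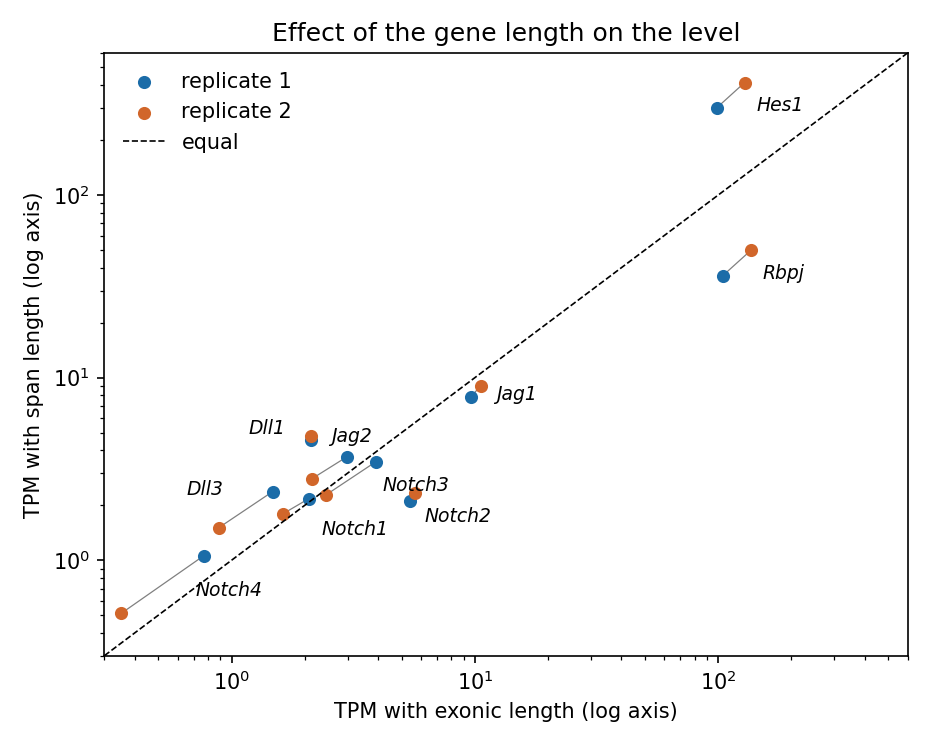
TPM of the 10 genes with span length (vertical) against TPM with exonic length (horizontal), both on log axes, in replicate 1 (blue) and replicate 2 (orange). The points of a gene are joined by a grey line, and the dashed line marks equal values. Hes1 and Dll1 lie above the dashed line, and Rbpj and Notch2 below it.

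The 2 libraries were compared gene by gene with a two-sided exact binomial test against the ratio of their totals. The test compares these libraries, not conditions, and covers counting error only. All 10 genes had the 10 counts in total that the test asked for. After Benjamini-Hochberg adjustment over 14536 genes, 6 of the 10 genes passed 0.05, which is near the background of 60.8% of all genes tested. Of these, 4 were lower in replicate 2 (background 45.7%) and 2 were higher (background 15.1%). Of the 10 ES cell markers, 9 were lower and 1 higher in replicate 2 with library totals, and 6 lower and 3 higher relative to the GC trend. With TMM factors 6 were lower and 3 higher. The lowest ratios were those of Dppa5a, with 2915 and 298 counts and a log2 of −3.06, and of Pou5f1, with 1129 and 142 counts and a log2 of −2.76, and they were −2.84 and −2.54 with TMM factors. Of the 50-base words of Dppa5a, 28.2% are shared with pseudogenes. The part of cell makeup in the ratios of the Notch pathway genes was not tested. The log2 ratio of replicate 2 to replicate 1 had a median of −0.26 over the 10 genes and of −0.31 over all genes tested. TMM factors add 0.22 to every log2 ratio and DESeq2 size factors add 0.31. With TMM factors 5 of the 10 genes passed, against a background of 57.8%. These were Rbpj, Hes1 and Jag1, higher in replicate 2, and Notch3 and Notch4, lower against a background of 30.7%.

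Rbpj and Hes1 were higher in replicate 2, by a log2 ratio of 0.30 (adjusted p = 9.61e-27, exact binomial test) and 0.29 (adjusted p = 7.12e-06, exact binomial test). Both stayed higher and past the threshold with TMM factors, with DESeq2 size factors and after the GC trend was removed. Notch3 was lower in replicate 2 with a log2 ratio of −0.77 (adjusted p = 4.3e-06, exact binomial test). It was also lower with TMM factors and with DESeq2 size factors, but stood at 0.01 relative to the GC trend. Notch4 had the largest ratio at −1.18 (adjusted p = 0.0101, exact binomial test). It did not pass with DESeq2 size factors, at −0.87 (adjusted p = 0.0785, exact binomial test), or relative to the GC trend, at −0.43 (adjusted p = 0.518, exact binomial test).

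Jag2 at −0.56 (adjusted p = 0.0198, exact binomial test) and Notch1 at −0.44 (adjusted p = 0.0344, exact binomial test) passed only with library totals, and no longer with TMM factors, DESeq2 size factors or the GC trend. The other 4 genes did not pass with library totals. Jag1 passed with DESeq2 size factors, at 0.36 (adjusted p = 0.0014, exact binomial test), and so did Notch2, at 0.28 (adjusted p = 0.0128, exact binomial test). With library totals the log2 ratios of the 4 genes were −0.80 for Dll3, −0.08 for Dll1, −0.03 for Notch2 and 0.05 for Jag1, and those of Dll1 and Notch2 were above 0 with TMM factors, with DESeq2 size factors and relative to the GC trend. The exact negative binomial test of edgeR called 0 of the 10 genes at an adjusted p of 0.05 and 0 at an unadjusted p of 0.05, and 0.475% of all genes tested. Its biological coefficient of variation, 0.277, was estimated from the same pair of libraries that it compares, so few calls follow from the design and say nothing about whether the genes differed.

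The ratio went with the GC content of the transcripts. Over the 10 genes the Spearman correlation of the log2 ratio with GC content was −0.92. It was −0.66 over the 9240 genes on autosomes that had 50 counts or more in both libraries. Both correlations are across genes, which are not independent replicates and share the same 2 libraries. The 4 genes with the most GC were Jag2 at 61.9%, Notch4 at 61.2%, Dll3 at 61.0% and Notch3 at 59.6%, and they had the lowest ratios. Rbpj, at 43.7%, had the least GC and the highest ratio. Relative to a trend fitted on the autosomal genes, 8 of the 10 genes lay above 0 and their median was 0.29, against −0.01 for all genes tested. With this trend as the expectation 4 of the 10 genes passed, each higher in replicate 2, against a background of 23.0% higher, 21.6% lower and 44.5% in either direction. These were Hes1 at 0.75 (adjusted p = 4.07e-33), Notch2 at 0.61 (adjusted p = 3.98e-08), Jag1 at 0.38 (adjusted p = 0.000987) and Rbpj at 0.27 (adjusted p = 8.92e-22), all by the exact binomial test.

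**Figure D3:**
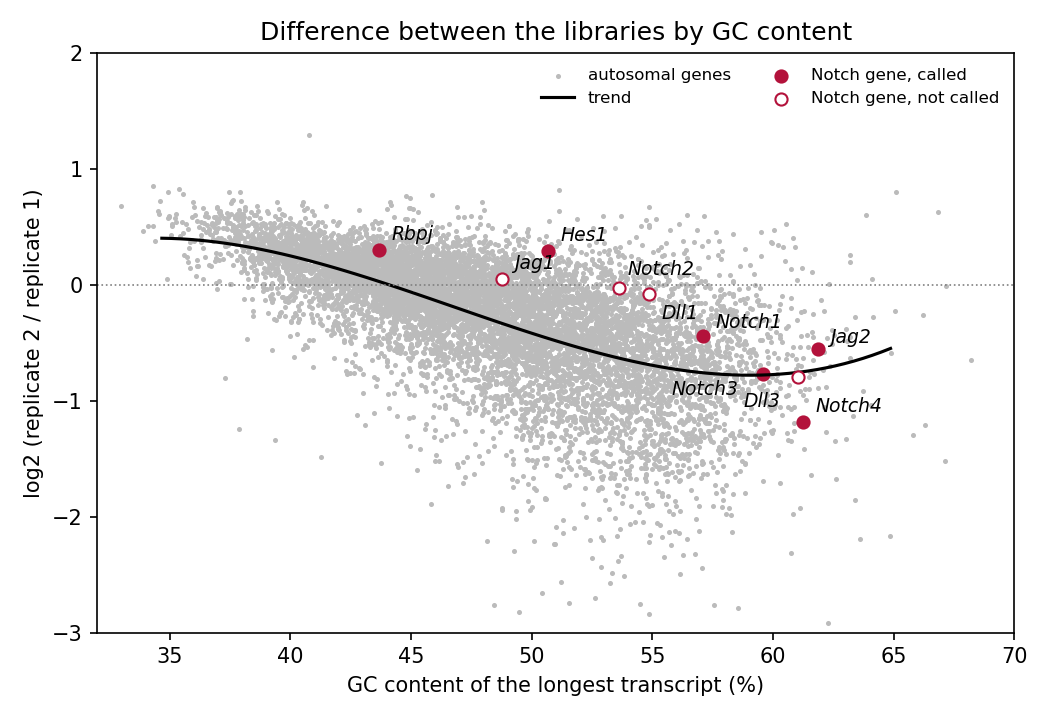
Log2 ratio of replicate 2 to replicate 1 against the GC content of the longest transcript, for 9240 autosomal genes (grey, 6 of them outside the axes), with the fitted trend (black line) and the 10 Notch pathway genes in red, filled where they passed the exact binomial test. Notch4, Dll3, Notch3 and Jag2 lie at the GC-rich end with the lowest ratios, and Rbpj at the GC-poor end with the highest.

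The rest of the pathway was taken from lists of 61 further genes by role. Of these, 45 reached 1 TPM, and their median was 5.15 TPM. In the comparison of the libraries 53 were tested, of which 10 were higher and 25 lower in replicate 2, together 66.0% against the background of 60.8%. With the GC trend 14 were higher (background 23.0%) and 11 lower (background 21.6%).

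Of the other targets, 3 of 9 reached 1 TPM. Hey1, a repressor related to HES1, was highest at 5.68 ± 0.118 TPM (SD, n = 2), so that Hes1 exceeded it by 17.1-fold in replicate 1 and 22.9-fold in replicate 2. Nrarp, a feedback inhibitor of the pathway, had 48 and 30 counts, or 2.20 ± 0.390 TPM. Hey2, whose promoter window holds the GTGGGAA motif on each strand, had 14 and 21 counts, or 1.05 ± 0.447 TPM. Hes5, with the same motif pair, had 1 count in each library, and Hes7 had 1 and 0. Hes3 and Heyl stood at 0 counts, where a count of 0 leaves room for 0.126 CPM (counts scaled to the library total) in replicate 1 and 0.148 CPM in replicate 2, the value of 3 counts. None of the 3 targets with enough counts for the test passed, against a background of 60.8% in either direction, and 6 were not tested. The 3 tested genes had few counts, so not passing does not show that they were stable.

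The other ligands were low, and none of the 3 reached 1 TPM. Dll4, the ligand of blood vessels, had 0 and 2 counts. Dlk2, a relative of Delta without the domain that activates receptors, had 11 and 2 counts, a log2 ratio of −1.98 (adjusted p = 0.0460, exact binomial test). It did not pass with TMM factors, at −1.75 (adjusted p = 0.0870, exact binomial test), or relative to the GC trend, at −1.23 (adjusted p = 0.367, exact binomial test).

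The enzymes that put sugars on the receptors differed widely. Poglut1, which adds O-glucose, had 3720 and 2100 counts, or 179 and 126 TPM with exonic length. By this length it was above all 10 genes in replicate 1 but below Rbpj in replicate 2. Its level in replicate 2 lay within the counting interval of Hes1 (121 to 136 TPM), so their order was not resolved there. With span length Poglut1 stood at 100 and 74.3 TPM, below Hes1 and above Rbpj in both libraries. The Fringe enzymes, which change the response of receptors to Delta and Jagged ligands, were low, with 12 and 2 counts for Lfng, 35 and 8 for Mfng and 9 and 1 for Rfng. All 5 genes of this list passed as lower in replicate 2 with library totals (background 45.7%). With TMM factors Poglut1 and Mfng did so (background 30.7%), while Lfng at −1.87, Rfng at −2.21 and Pofut1 at −0.02 did not. Relative to the GC trend 1 gene passed in each direction (background 23.0% higher and 21.6% lower). Poglut1 was lower, at −0.41 (adjusted p = 1.36e-24, exact binomial test), and Pofut1 higher, at 0.27 (adjusted p = 0.00523, exact binomial test). The Fringe log2 ratios were −1.84 for Mfng, −2.10 for Lfng and −2.44 for Rfng, but relative to the GC trend, at −1.06, −1.32 and −1.66, none of the 3 passed (adjusted p = 0.101 to 0.292, exact binomial test).

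Of 10 genes for cutting the receptor, 8 reached 1 TPM. Adam10, which makes the cut outside the membrane, was highest with 62.9 TPM in replicate 1 and 88.4 TPM in replicate 2. It exceeded the related protease Adam17 by 1.10-fold and 1.54-fold, but with span length the ratio of their means was 0.668. Psen2, a presenilin that carries the active site of gamma-secretase, had 86 and 30 counts, or 5.02 and 2.18 TPM. Psenen, another subunit, was lowest with 4 and 0 counts, but 39.0% of its 50-base words are shared with pseudogenes, so its level is uncertain. Furin, which cuts the receptor on its way to the surface, had 41 and 15 counts. The log2 ratios of Psen2 at −1.28 and Furin at −1.19 passed with library totals (adjusted p = 2.63e-05 and 0.00861, exact binomial test) and not relative to the GC trend.

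Ubiquitin ligases and the Numb adaptors act on the trafficking and turnover of ligands and receptors, and 11 of 12 reached 1 TPM. Itch, a ligase that acts on Notch, was highest at 132 ± 17.3 TPM (SD, n = 2), and Neurl1b lowest at 0.210 TPM. Of the 12 genes, 3 passed as higher (background 15.1%) and 6 as lower in replicate 2 (background 45.7%), and with the GC trend 2 as higher (background 23.0%) and 5 as lower (background 21.6%). The Deltex gene Dtx3 had the largest ratio, with 159 and 25 counts, a log2 of −2.42 (adjusted p = 7.49e-20, exact binomial test), and −1.64 relative to the GC trend. Dtx1 followed with 58 and 10 counts, a log2 of −2.25 (adjusted p = 2.12e-07, exact binomial test), and −1.55 relative to the GC trend. Numbl at −1.34, Neurl1a at −1.13 and Dtx2 at −1.06 were also lower in replicate 2, and stood at −0.67, −0.47 and −0.28 relative to the GC trend, where Dtx2 did not pass (adjusted p = 0.51, exact binomial test).

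The nuclear partners of RBPJ were among the most expressed genes of the pathway. Of 8 coactivators 7 reached 1 TPM, led by Snw1 at 194 ± 44.4 TPM (SD, n = 2), while Maml2, a Mastermind gene, was lowest with 8 and 10 counts. The acetyltransferase gene Kat2a had 180 and 57 counts, a log2 ratio of −1.42 (adjusted p = 1.62e-11, exact binomial test), and −0.65 relative to the GC trend (adjusted p = 0.00551, exact binomial test). Of 14 corepressor genes 13 reached 1 TPM, with a median of 26.3 TPM against 13.0 TPM for the coactivators. With span length these medians were closer, at 13.1 and 10.0 TPM. Ctbp2 was highest at 218 ± 39.2 TPM and Tle2 lowest at 0.365 ± 0.143 TPM.

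SPEN binds RBPJ and, through its SPOC domain, the corepressor NCOR1. Spen had 769 and 400 counts, or 8.32 and 5.38 TPM, and was lower in replicate 2 by a log2 ratio of −0.72 (adjusted p = 1.21e-15, exact binomial test), although it stood at 0.05 relative to the GC trend. Ncor1 exceeded Spen by 19.4-fold in replicate 1 and 33.9-fold in replicate 2, a ratio of means of 25.1 that was 11.5 with span length. Hdac3, the deacetylase of this complex, had 630 and 185 counts, a log2 ratio of −1.54 that remained at −1.11 relative to the GC trend (adjusted p = 2.3e-21, exact binomial test).

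**Figure D4:**
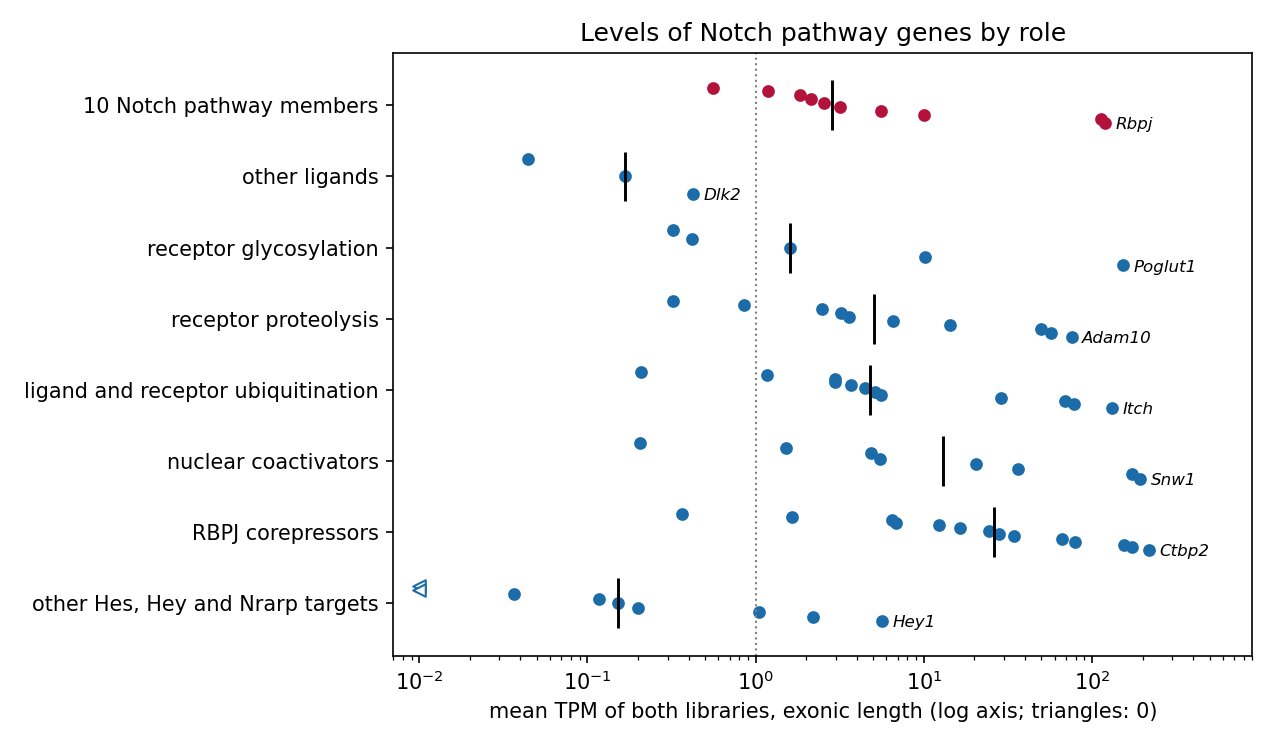
Mean TPM of both libraries with exonic length, on a log axis, for the 10 Notch pathway genes (red) and the 61 further genes by role (blue), with the highest gene of each list named and the median of the list as a black bar. Open triangles, drawn at 0.01 TPM, are genes with 0 counts in both libraries, and the dotted line marks 1 TPM. Among the lists of further genes the corepressors have the highest median at 26.3 TPM, and the other targets and other ligands the lowest.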

How the data were processed

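Gene counts were deposited by the authors as whole numbers of fragments, made per the file headers with featureCounts (version 1.5.2) over whole transcripts by gene, in reverse-stranded mode, on mm10. Bowtie2 2.3.2 and STAR 2.4.2a are named in the submitters' processing notes. The table was deposited with a length column that spans introns. Its column names lack a letter b that the sample descriptions carry, and the remainder of each name gave its sample. Depth was 23716499 and 20275749 counts.

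TPM was computed with the union of exons of GENCODE M21 basic (GRCm38, the assembly of mm10), matched for 98.1% of genes, because libraries of polyadenylated RNA hold few intronic reads. Span length, the longest transcript and CPM were alternatives. None of the 10 genes overlapped another gene of the table on either strand. Libraries were compared by a two-sided exact binomial test over genes with at least 10 counts, with Benjamini-Hochberg adjustment at 0.05, and log2 ratios used 0.5 added counts. The GC trend was a polynomial of degree 3. TMM factors and dispersion came from edgeR 4.0.16, size factors from DESeq2 1.42.0 (R 4.3.3), and the binomial test from scipy 1.17.1, checked on simulated counts. Nothing in the labels says whether the replicates were separate cultures, so their spread may be technical.

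The 10 genes and all lists were chosen with earlier results of these data known. Named besides them were the highest and lowest gene of each pathway list, genes with a called log2 ratio of at least 1 in size, and Spen, Ncor1 and Hdac3, and some genes that this rule names are not reported here. Adam17, Pofut1, Dppa5a, Pou5f1, Hes5, Hes7, Hey2 and Nrarp were named after their values were seen.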

Additional observations from a re-analysis of the deposited data

How the results depend on the processing

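No paired analysis was possible because a single group was sequenced. The median level of the 10 genes was 2.87 TPM and ran from 2.29 to 3.44 TPM when each replicate was left out in turn, and was 6.65 with CPM in place of TPM. At least 5 TPM was reached by 4 genes in place of 9 at 1 TPM. The count that differed between the libraries was 6 of 10, from 4 to 6 under the other scalings and filters, and 0 with the negative binomial test, whose dispersion comes from the same pair of libraries, so that this 0 says nothing about stability. Reversed log2 ratios were 0.32 for Notch1, 0.0072 for Notch3 and 0.17 for Jag2 with the GC trend, and those of Notch2 and Dll1 were 0.20 and 0.14 with TMM factors, 0.28 and 0.23 with DESeq2 size factors and 0.61 and 0.61 with the GC trend. The causes were not tested. Of 60 alternatives for single differences 42 kept direction and side of the threshold and 9 reversed, and counting those 9, the call was lost in 9 and gained in 5. Of 30 single levels with another length or unit, 11 stayed within the spread between replicates. Leaving out a replicate cannot be tried for the difference between the libraries. Depth limits Notch4 and Dll3, with 14 counts each in replicate 2.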
